A study of Homo sapiens with 4 samples.

Results

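The nuclear pore complex is a large ring of proteins, the nucleoporins, that spans the nuclear envelope, and transport receptors carry cargo through it. A set of 43 such genes was examined in the human ovarian carcinoma line HeyA8-MDR, which is resistant to several drugs, with and without an inhibitor of the microRNA miR-204-5p. The set held 29 nucleoporins and 14 genes of transport receptors and the Ran cycle, and each was taken through the gene symbol of its array feature. Of the 43 genes, 40 had a named feature among the 21448 features of the arrays, 27 of them nucleoporins. NUP62, NUP98 and RCC1 had no named feature and were not analysed here. Each of the 40 had 1 feature, so no choice between features had to be made. The set was proposed with this comparison in view, so its differences are given as a description, and the tests over all features are quoted without support being drawn from them.

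The cells were kept in 300 ng/ml paclitaxel and 15% serum, in both groups. Of the 4 Affymetrix Human Clariom S arrays, 2 came from cells given a control microRNA inhibitor and 2 from cells given the inhibitor of miR-204-5p, an antisense oligonucleotide that blocks the mature microRNA. Since the treatment note lists that inhibitor for all 4 arrays, the arrays without miR204 in their titles were taken as controls from the design text, and every direction rests on that assignment. The cells were 1 line, nothing says that replicates were separate cultures, the labels state no time after treatment, and the level of miR-204-5p was not analysed here. The p-values therefore cover only array-to-array spread, which could be technical, and the number of arrays limits the precision. Array medians ran from 5.59 to 5.68 log2 units and correlations between arrays from 0.984 to 0.995. Over features, the standard deviation was 2.2 and 2.21 in the control arrays but 2.08 and 2.13, a narrower spread, under the inhibitor. Of 8 epithelial and ovarian carcinoma markers 4 lay in the brightest 25% of features, the keratins KRT7, KRT8 and KRT18 and the transcription factor PAX8. EPCAM and CDH1 lay in the dimmest 25%, and WT1 and MUC16 lay between. All 3 mesenchymal markers, VIM, FN1 and CDH2, lay in the brightest 25%, as did the drug resistance gene ABCB1. Markers of other cells were mixed: CDH5, an endothelial cadherin, and CD68, a macrophage marker, were in the brightest 25% and PTPRC and LUM in the dimmest, and the log2 of the summed level of 7 such markers was 9.43 and 9.4 in the control pair and 9.06 and 9.19 in the inhibitor pair. Of the 7, CDH5 was lower by far the most, with a difference of -1.075 (SE 0.14), LUM differed by -0.095 without overlap, PECAM1 (0.47) and CD3E (0.33) were higher without overlap, and PTPRC (0.115), DCN (0.165) and CD68 (0.025) overlapped. In limma 0 of the 7 passed an adjusted p of 0.05, and 1, CDH5, had an unadjusted p under 0.05. Their part in the results below was not tested.

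The microRNA that the inhibitor addresses is shown with its seed, bases 2 to 8, in capitals, beside miR-211-5p, which carries the same seed. Sequences are those of RefSeq for GRCh38.p14. The first lies at chr9:70810031-70810052 and the second at chr15:31065095-31065116, both on the minus strand.
miR-204-5p: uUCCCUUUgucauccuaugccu
miR-211-5p: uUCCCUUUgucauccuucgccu
Matches to this seed in the transcripts of the pore genes were not analysed here.

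Pore proteins are grouped by where they sit. The Y complex forms the outer rings on both faces of the envelope, the inner ring lines the membrane bend, and membrane nucleoporins anchor the whole. Nucleoporins rich in phenylalanine-glycine repeats fill the channel and bind passing receptors. Importin alpha proteins recognise nuclear localisation signals and pair with importin beta, exportins carry cargo out, and the small GTPase Ran, bound to GTP in the nucleus, sets the direction of transport. In dividing cells the envelope and pores are taken apart and rebuilt at each mitosis, and pore number grows through interphase.

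All 40 measured genes had a lower mean in the inhibitor arrays than in the controls, as did 59.2% of all features. The differences, given as inhibitor minus control in log2 units, ran from -1.02 for NUP210 to -0.035 for NUP58, with a median of -0.37 and a middle range of -0.46 to -0.25, while the median over all features was -0.07. In 36 of the 40 genes both inhibitor values lay below both control values, which held for 33.8% of all features. No gene had both inhibitor values above both controls, against 16.5% of all features. The 4 genes with overlapping or touching values were NUP43, NUP58, NUP107 and the importin alpha gene KPNA6. At an adjusted p under 0.05 in limma, 0 of the 40 passed. Over all features the share that passed was 0% in the lower direction and 0.0513% in the higher one. Adjusted p-values of the 40 from limma ran from 0.12 to 0.92. At an unadjusted p under 0.05, 21 of the 40 were lower and 0 higher, beside 12.8% and 5.11% of all features.

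**Figure D1:**
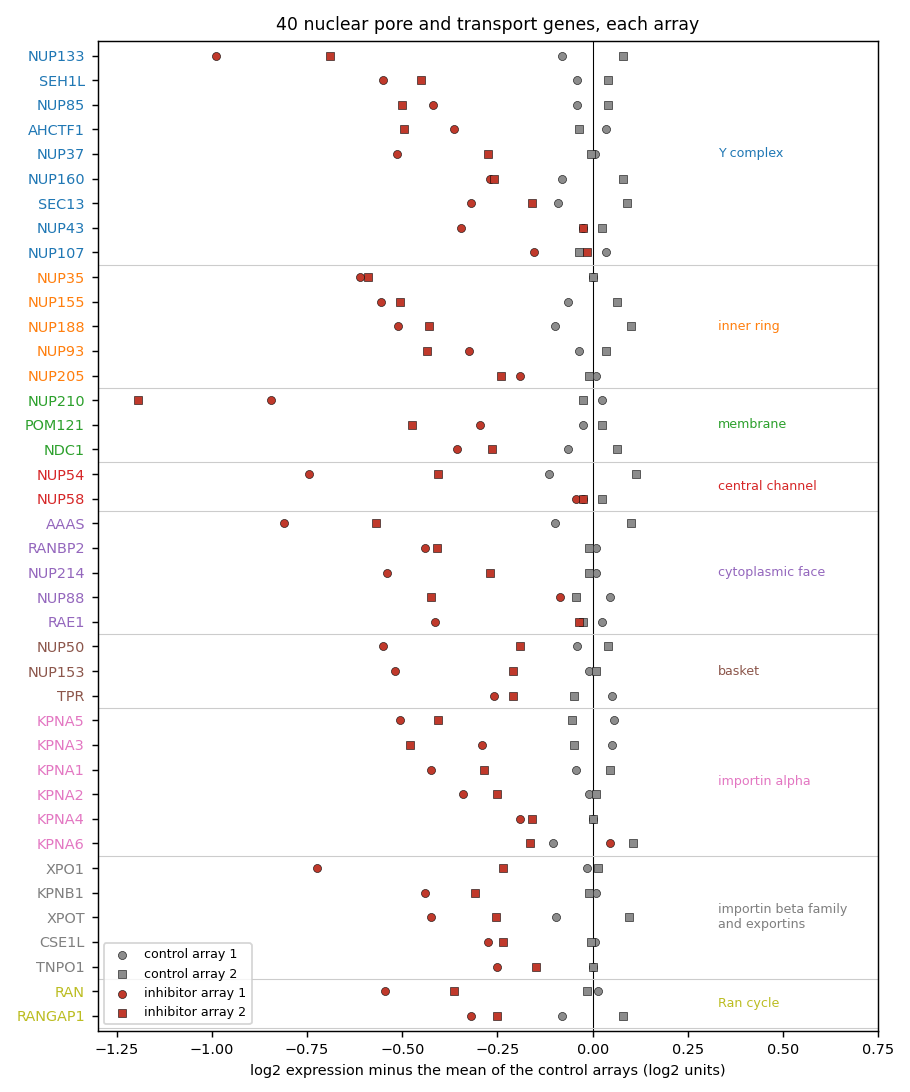
Each row is 1 of the 40 genes, coloured by role, and each point is 1 array, as log2 expression minus the mean of that gene's 2 control arrays. The inhibitor arrays (red) lie left of both controls (grey) in 36 genes, and NUP210 and NUP133 lie farthest left.

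The arrays of a group stood closer together in the controls. The gap between the 2 control arrays had a median of 0.07 log2 units over the 40 genes and was at most 0.23, for NUP54. The gap between the inhibitor arrays had a median of 0.135 and reached 0.49, for XPO1. Inhibitor array 1 gave the lower value in 31 genes and inhibitor array 2 in 9. The median shift of the 40 genes from their control means was -0.42 in inhibitor array 1 and -0.27 in inhibitor array 2, so the size of the shift depended on the array while its direction did not.

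Brightness moves with these differences. With all features split by mean expression into 10 groups of like size, the median difference went from 0.085 in the dimmest group to -0.215 in the brightest, and 29 of the 40 genes lay in the 2 brightest groups. In the brightest group alone, which held 18 of them, 69% of all features had inhibitor values below both controls. Averaged over the brightness groups in which the 40 genes lay, that share was 57.9%, against 90% of the genes themselves. Set against the median of its own brightness group, 34 of the 40 genes were lower, with a median of -0.17. The 6 that were not were NUP43, NUP58, NUP107, KPNA4, KPNA6 and the import receptor gene TNPO1.

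**Figure D2:**
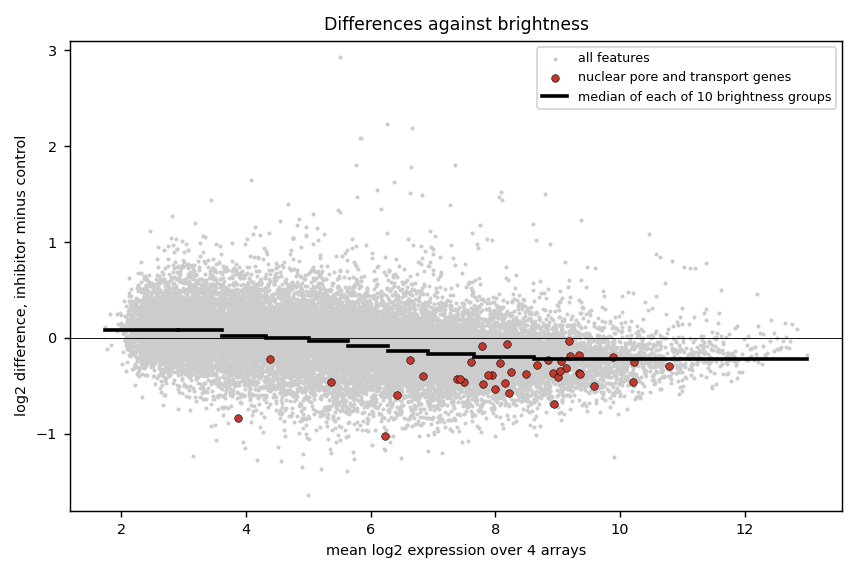
Log2 difference, inhibitor minus control, against the mean log2 expression of the 4 arrays for all 21448 features (grey), with the 40 pore and transport genes in red and the median of each of 10 brightness groups as a black bar. The bars descend from 0.085 to -0.215, and 34 of the 40 red points lie below the bar of their group.

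Quantile normalization, which gives all arrays the same distribution, brought the median of the 40 genes to -0.18 and that of all features to -0.004. Cyclic loess, which removes differences that follow brightness, brought them to -0.17 and 0.002. Under each of these scalings 34 of the 40 were lower, beside 50.5% and 49.6% of all features in that order. In 28 of the 40 both inhibitor values lay below both controls, against 23.9% of all features after quantile normalization and 23.4% after cyclic loess. The same 6 genes named above then had small positive differences, from 0.019 to 0.169 after quantile normalization. With arrays shifted to equal medians, 38 of 40 were lower (50.4% of all features) and 34 lower without overlap (26.7% of all features). The size of the median shift thus moved with the scaling, and its direction did not.

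**Figure D3:**
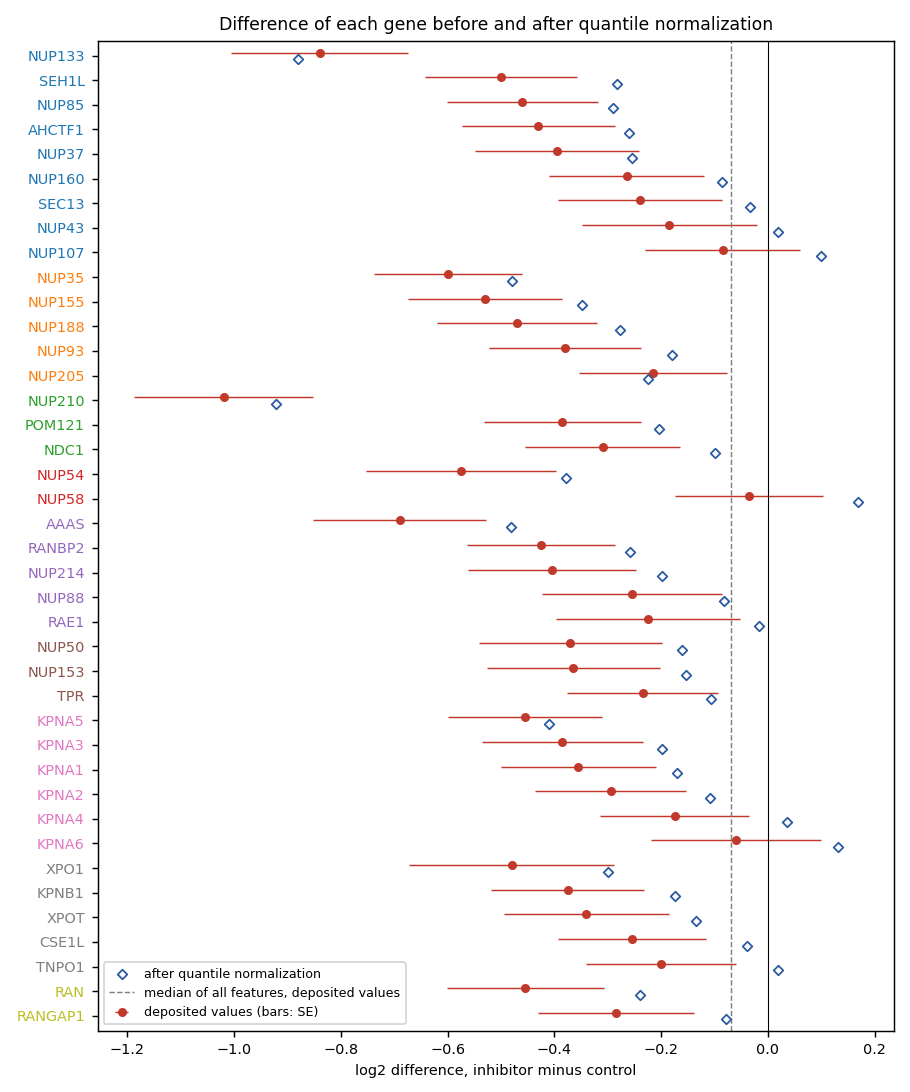
Log2 difference, inhibitor minus control, of the 40 genes in the deposited values (red points, bars are the standard error) and after quantile normalization (open diamonds), with the median of all features as a dashed line. Points move to the right with the normalization, except those of NUP133 and NUP205, and 6 diamonds lie right of 0.

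The membrane nucleoporins anchor the pore in the envelope and had the gene with the largest difference. NUP210, the glycoprotein gp210 of the pore membrane, measured 6.76 and 6.71 in the control pair and 5.89 and 5.54 in the inhibitor pair. Both inhibitor values lay well below both controls, a difference of -1.02 (SE 0.168, 95% interval -1.42 to -0.62), or 2.03-fold lower. It was -0.92 after quantile normalization. The limma adjusted p was 0.12 in the deposited values. POM121, another membrane-anchored nucleoporin, measured 8.12 and 8.17, then 7.85 and 7.67, a difference of -0.385 (SE 0.147). Its close copy POM121C, which the probes may not separate from it, differed by -0.285 (SE 0.141). NDC1, a membrane protein of all pores, measured 9.22 and 9.35, then 8.93 and 9.02, a difference of -0.31 (SE 0.145). All 3 were lower without overlap, beside 33.8% of all features. In the brightness group of each gene the share was 31.7% for NUP210, 59.2% for POM121 and 69% for NDC1.

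The Y complex had 9 measured genes, all with lower means, a median of -0.395 and 7 without overlap (33.8% of all features). After quantile normalization 6 of the complex were lower without overlap, beside 23.9% of all features. In the deposited values the share in the genes' brightness groups ran from 17.3% for NUP133 to 69% for NUP43, SEH1L and SEC13. The median brightness of the 9 genes was 7.793, in a group where the share was 59.2%. NUP133, one of the stem proteins of the complex, measured 4.21 and 4.37 in the control pair and 3.3 and 3.6 in the inhibitor pair. The difference of -0.84 (SE 0.166, 95% interval -1.24 to -0.44) is the second largest of the set. The inhibitor values lay within the dimmest 25% of features, whose upper limit was 3.965. Background signal was not measured here, which leaves this size uncertain. SEH1L, which also belongs to a complex that regulates mTORC1, measured 9.79 and 9.87, then 9.28 and 9.38, a difference of -0.50 (SE 0.143). NUP85, its neighbour in the complex, measured 7.68 and 7.76, then 7.3 and 7.22, a difference of -0.46 (SE 0.142). In all 3 the gap between groups was wider than the gap between arrays of a group.

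The other 6 members of the Y complex were spread out. AHCTF1, the protein ELYS that seeds pore assembly on chromatin after mitosis, differed by -0.43 (SE 0.144), and NUP37 by -0.395 (SE 0.153). NUP160 differed by -0.265 (SE 0.145) and SEC13, which also coats vesicles of the secretory pathway, by -0.24 (SE 0.153). NUP43 had values of 9.26 and 9.31, then 8.94 and 9.26, so that 1 inhibitor array equalled a control. NUP107, a scaffold protein of the complex, had 7.87 and 7.8, then 7.68 and 7.82, and its groups overlapped. Both turned to positive differences after quantile normalization, 0.019 for NUP43 and 0.10 for NUP107. Transcripts of this complex ranged from a difference of -0.84, for the dim NUP133 whose size is uncertain, to -0.085 for NUP107. After NUP133 the largest difference was -0.50, for SEH1L. Whether members of the complex differed from each other was not tested.

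In the inner ring, which links the membrane to the channel, all 5 genes were lower without overlap, beside 33.8% of all features. Their median was -0.47. The 5 were also lower without overlap after quantile normalization, beside 23.9% of all features. In the deposited values the share was 59.2% in the brightness group of NUP155, NUP188 and NUP93. It was 42.8% in that of NUP35 and 21.5% in that of NUP205. NUP35, which binds the membrane directly, had the steadiest arrays: 6.73 and 6.73 in the control pair and 6.12 and 6.14 in the inhibitor pair. Its difference was -0.60 (SE 0.139, 95% interval -0.93 to -0.27), or 1.52-fold. NUP155, a scaffold protein at the membrane, measured 8.19 and 8.32, then 7.7 and 7.75, a difference of -0.53 (SE 0.144). NUP188 measured 8.29 and 8.49, then 7.88 and 7.96, a difference of -0.47 (SE 0.15). NUP93, which recruits other inner ring proteins, differed by -0.38 (SE 0.143). NUP205, a large scaffold protein related to NUP188, had low values, 4.5 and 4.48, then 4.3 and 4.25, a difference of -0.215 (SE 0.139). After quantile normalization the 5 differences remained below 0.

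The central channel was measured through 2 of its 4 listed genes. NUP54, part of the channel's trimer with NUP58 and NUP62, measured 8.39 and 8.62 in the control pair and 7.76 and 8.1 in the inhibitor pair, a difference of -0.575 (SE 0.178). NUP58 measured 9.18 and 9.23, then 9.16 and 9.18, a difference of -0.035 (SE 0.139, 95% interval -0.37 to 0.30). The highest inhibitor value of NUP58 equalled its lowest control value. Its difference was 0.169 after quantile normalization, 0.179 after cyclic loess and 0.03 with equal medians, so its direction depends on the scaling. Whether NUP54 and NUP58 differed from each other was not tested.

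On the cytoplasmic face, where exported cargo is released, all 5 genes were lower without overlap (33.8% of all features), with a median of -0.405. After quantile normalization, cyclic loess or equal medians this held for 3 of the 5, since the groups of NUP88 and RAE1 then overlapped. The shares of all features were then 23.9%, 23.4% and 26.7% in that order. In the deposited values the share was 69% in the brightness group of NUP214, AAAS and RAE1, and 50.1% in that of NUP88 and RANBP2. AAAS, the protein ALADIN, named for the triple A syndrome that its loss causes, measured 9.18 and 9.38 in the control pair and 8.47 and 8.71 in the inhibitor pair. That is a difference of -0.69 (SE 0.162, 95% interval -1.08 to -0.30), or 1.61-fold, which was -0.48 after quantile normalization. RANBP2, the large filament protein that binds Ran and attaches SUMO, measured 7.6 and 7.58, then 7.15 and 7.18, a difference of -0.425 (SE 0.139). Of the RGPD genes, which copy much of RANBP2, 6 were measured, with differences from -0.32 for RGPD8 to 0.155 for RGPD4, and the probes may not separate them all from RANBP2. NUP214, a repeat nucleoporin that binds exportin 1, measured 9.22 and 9.2, then 8.67 and 8.94, a difference of -0.405 (SE 0.157). NUP88, its partner, measured 7.79 and 7.7, then 7.66 and 7.32, a difference of -0.255 (SE 0.168) that was -0.085 with inhibitor array 1 alone and -0.425 with inhibitor array 2 alone. RAE1, an mRNA export factor, differed by -0.225 (SE 0.173), with a highest inhibitor value of 8.93 just under its lowest control of 8.94. That difference shrank to -0.035 when inhibitor array 1 was left out.

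The nuclear basket, on the inner face of the pore, had 3 genes lower without overlap, beside 33.8% of all features, and a median of -0.365. After quantile normalization 2 were, beside 23.9% of all features. In the deposited values the share was 69% in the brightness group of NUP153 and NUP50, and 42.8% in that of TPR. NUP153, a repeat nucleoporin that binds importins and chromatin, measured 9.09 and 9.11, then 8.58 and 8.89, a difference of -0.365 (SE 0.162). NUP50, a mobile cofactor of import, measured 9.48 and 9.56, then 8.97 and 9.33, a difference of -0.37 (SE 0.171). TPR, the filament protein of the basket, measured 6.79 and 6.69, then 6.48 and 6.53, a difference of -0.235 (SE 0.142). In NUP153 and NUP50 inhibitor array 1 was the lower, and without it their differences were -0.21 and -0.19. Intervals of all 3 included 0.

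Among transport receptors and the Ran cycle, 13 of 14 listed genes were measured, with a median of -0.34, and 12 were lower without overlap, beside 33.8% of all features and 69% of those in the brightest group. After quantile normalization or cyclic loess 8 of the 13 were, beside 23.9% and 23.4% of all features in that order. The median of the 27 nucleoporins was -0.385. Receptors ranged from -0.48 to -0.06, a narrower range than the nucleoporins' -1.02 to -0.035. Whether the 2 medians differed was not tested.

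The 6 importin alpha genes encode adaptors that bind different sets of cargo, and all had lower means. KPNA5 measured 5.64 and 5.53 in the control pair and 5.08 and 5.18 in the inhibitor pair, a difference of -0.455 (SE 0.144). KPNA3 measured 8.13 and 8.03, then 7.79 and 7.6, a difference of -0.385 (SE 0.15), and KPNA1 differed by -0.355 (SE 0.146), from 8.39 and 8.48 to 8.01 and 8.15. KPNA2, the adaptor typical of dividing cells, measured 10.92 and 10.94, then 10.59 and 10.68, a difference of -0.295 (SE 0.141). Its control arrays were close together, yet its interval of -0.63 to 0.04 included 0. KPNA4, the closest relative of KPNA3, differed by -0.175 (SE 0.139), and by 0.036 after quantile normalization. KPNA6, with values of 8.12 and 8.33, then 8.27 and 8.06, had interleaved groups. Its difference of -0.06 (SE 0.16) became 0.131 after quantile normalization and 0.005 with equal medians. The adaptors thus ran from a clear gap in KPNA5 to none in KPNA6.

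KPNB1, importin beta 1, the carrier that takes importin alpha and its cargo through the pore, measured 9.55 and 9.53 in the control pair and 9.1 and 9.23 in the inhibitor pair, a difference of -0.375 (SE 0.143). TNPO1, the transportin for RNA-binding proteins, measured 9.99 in both controls, then 9.74 and 9.84, a difference of -0.20 (SE 0.141) that became 0.019 after quantile normalization. CSE1L, the exportin that returns importin alpha to the cytoplasm, measured 10.36 and 10.35, then 10.08 and 10.12, a difference of -0.255 (SE 0.139). The groups were apart in all 3, with intervals that overlapped each other. XPO1, exportin 1, which carries proteins with leucine-rich export signals, measured 8.03 and 8.06, then 7.32 and 7.81. Its difference of -0.48 (SE 0.192, 95% interval -0.94 to -0.02) was -0.235 without inhibitor array 1. XPOT, the exportin of transfer RNA, measured 9.11 and 9.3, then 8.78 and 8.95, a difference of -0.34 (SE 0.155).

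Of the Ran cycle, RAN itself measured 10.45 and 10.42 in the control pair and 9.89 and 10.07 in the inhibitor pair, a difference of -0.455 (SE 0.147, 95% interval -0.81 to -0.10). RANGAP1, which makes Ran hydrolyse GTP at the cytoplasmic face, measured 8.73 and 8.89, then 8.49 and 8.56, a difference of -0.285 (SE 0.146). Both had separate groups, and after quantile normalization the differences were -0.24 for RAN and -0.079 for RANGAP1.

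Further genes of nuclear transport were taken from a second list, put together from their known roles while earlier results of these data were known. Of 53 listed genes 45 were measured, 37 with a lower, 7 with a higher and 1 with an equal mean, and 29 were lower and 1 higher without overlap. Over all features 59.2% had a lower mean, and 33.8% were lower and 16.5% higher without overlap. The median brightness of the 45 was 7.615, in a brightness group where 50.1% of features were lower without overlap. A share matched to the brightness of each gene was not computed for this list. After quantile normalization 18 of the 45 were lower and 4 higher without overlap, beside 5134 (23.9%) and 4876 of the 21448 features. In limma 0 of the 45 passed an adjusted p of 0.05 in either direction, with 15 lower and 1 higher at an unadjusted p under 0.05, beside 12.8% and 5.11% of all features. Their median was -0.27, or -0.10 after quantile normalization. RANBP1, a cofactor that helps RANGAP1 act on Ran, measured 9.99 and 9.93, then 9.31 and 9.25, a difference of -0.68 (SE 0.14, limma adjusted p = 0.15). The import receptor IPO4 differed by -0.585 (SE 0.163), IPO5, a carrier of ribosomal proteins and histones, by -0.495 (SE 0.141), and RANBP17 by -0.505 (SE 0.141), with limma adjusted p-values of 0.18 to 0.19. XPO5, the exportin of microRNA precursors, was picked out after its values were seen: 6.47 and 6.42 in the controls, then 4.98 and 5.97, a difference of -0.97 (SE 0.303) with inhibitor arrays that were far apart.

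The parts of this second list were unequal. The 16 further importins and exportins had a median of -0.40, with 13 lower without overlap, beside 33.8% of all features. The 5 genes grouped as Ran cofactors and related genes were RANBP1, RANBP3, NUTF2, RANGRF and SENP1. They had a median of -0.40, with 4 lower without overlap. After quantile normalization these counts were 9 and 3, beside 23.9%. The 16 mRNA export genes had a median of -0.24, with 11, or 6 after quantile normalization, and GLE1, an export factor at the pore's cytoplasmic face, differed by -0.44 (SE 0.147). The 8 near-copies of pore genes had a median of 0.003, with 1, or 0 after quantile normalization. Among them RGPD1, RGPD2, RGPD4 and NUP62CL were dim, with means over the arrays from 2.613 to 4.627. Background signal was not measured here, which leaves their differences uncertain. Relative to features of like brightness the medians of the 4 parts were -0.225, -0.195, -0.065 and 0.02. In the same order, the median brightness of the parts was 7.422, 9.045, 7.759 and 5.389. In those brightness groups 50.1%, 69%, 59.2% and 25.8% of all features were lower without overlap in the deposited values.

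**Figure D4:**
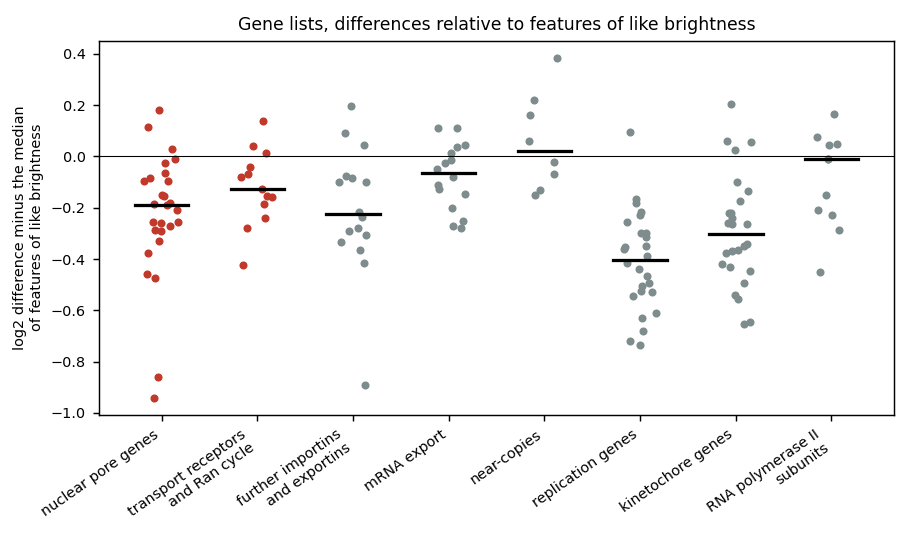
Each point is 1 gene, as its log2 difference minus the median difference of all features in the same of 10 brightness groups, and black bars are list medians. The medians of nuclear pore genes (-0.19) and of transport receptors and the Ran cycle (-0.125) lie between those of replication genes (-0.40) and RNA polymerase II subunits (-0.01).

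On that scale the 27 nucleoporins had a median of -0.19 and the 13 receptors and Ran genes one of -0.125. Lists of 26 DNA replication genes, 26 kinetochore genes and 11 RNA polymerase II subunits gave -0.40, -0.30 and -0.01. In the deposited values their medians were -0.575, -0.48 and -0.225, against -0.37 for the 40 pore and transport genes. The order of the pore and transport genes, after replication and kinetochore genes and before polymerase subunits, was alike in both scales and after quantile normalization, where the medians were -0.41, -0.31, -0.18 and -0.03. These are descriptions of the same 4 arrays, and no difference between lists was tested.

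The promoters of the 40 genes were searched for motifs of genes that are active in dividing cells and of housekeeping genes. RefSeq promoters for GRCh38.p14, 250 bases before to 50 after a gene start, were matched for 35 of the 40 genes, with 45 promoters in all since some genes have several. Both strands were searched, and different motifs may overlap. The CCAAT box was found in 35.6% of the genes' promoters and 34.6% of all 35116. The cell cycle homology element TTTGAA was found in 26.7% against 15.2%, and the GC box GGGCGG in 55.6% against 45%. In the promoters of the second list of transport genes, described above, TTTGAA was found in 5.77% of 52, below the share of all promoters, CCAAT in 44.2% and GGGCGG in 59.6%. The TTTGAA share was thus above that of all promoters for the 35 matched genes, from 12 of 45 promoters. For the second list, from 3 of 52, it was below. Whether these shares bear on the lower values was not tested. The E2F forms TTTGGCGC or TTTCCCGC were in 1 promoter, that of NUP155, or 2.22% against 2.27%, and the palindromic motif of NRF1, given here by name, was in 2, or 4.44% against 1.24%. No test was run of these shares, promoters of 1 gene are not independent, and a match is not a bound site.

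The 250 bases before the start of 4 genes show the range, with all matches to these motifs in capitals. They were chosen after values and motifs were seen: NUP210 has the largest difference, NUP35 and NUP155 lead the inner ring, and KPNA2 holds several kinds of match.
NUP210, chr3:13420323-13420572, minus strand: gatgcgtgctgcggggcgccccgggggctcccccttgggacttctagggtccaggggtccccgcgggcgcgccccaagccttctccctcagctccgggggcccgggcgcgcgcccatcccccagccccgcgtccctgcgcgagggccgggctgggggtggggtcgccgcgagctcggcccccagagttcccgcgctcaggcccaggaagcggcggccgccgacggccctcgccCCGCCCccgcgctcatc
NUP35, chr2:183124193-183124442, plus strand: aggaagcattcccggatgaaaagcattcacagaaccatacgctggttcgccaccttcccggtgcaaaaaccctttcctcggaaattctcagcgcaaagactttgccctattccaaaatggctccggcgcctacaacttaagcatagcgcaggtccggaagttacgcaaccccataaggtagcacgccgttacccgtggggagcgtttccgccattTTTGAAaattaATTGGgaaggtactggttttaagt
NUP155, chr5:37371107-37371356, minus strand: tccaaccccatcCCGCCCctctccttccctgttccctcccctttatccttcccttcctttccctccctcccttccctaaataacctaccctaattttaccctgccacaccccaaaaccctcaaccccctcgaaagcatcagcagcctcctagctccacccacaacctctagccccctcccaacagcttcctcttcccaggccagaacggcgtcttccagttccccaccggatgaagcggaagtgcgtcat
KPNA2, chr17:68035485-68035734, plus strand: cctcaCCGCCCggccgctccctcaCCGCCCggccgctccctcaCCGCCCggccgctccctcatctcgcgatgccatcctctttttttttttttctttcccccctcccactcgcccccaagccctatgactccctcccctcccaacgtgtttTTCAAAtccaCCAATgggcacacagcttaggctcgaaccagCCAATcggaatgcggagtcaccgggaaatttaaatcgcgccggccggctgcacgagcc
In this window NUP210 had 1 GC box near its start, with 2 more of its 3 beyond the window, and no CCAAT box, while NUP35, with no GC box, had a TTTGAA next to an inverted CCAAT box. KPNA2 had 2 CCAAT boxes after a TTTGAA on the other strand, with its second TTTGAA beyond the window, and 3 GC boxes in a repeat farther up. NUP155 had 1 GC box in this window, and its E2F match lies outside it.

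Calls on single genes depended on how limma's variance prior was set. With a prior that follows brightness, 13 of the 40 passed an adjusted p of 0.05, all lower, against 6.09% of all features called lower. They were NUP35, NUP54, NUP85, NUP133, NUP155, NUP188, NUP210, NUP214, SEH1L, AAAS, KPNA2, KPNB1 and RAN. With that prior after quantile normalization 2 passed, NUP210 (limma adjusted p = 0.021) and AAAS (limma adjusted p = 0.027), against 1.19% of features called lower. Among features above the median level, 37 of the genes were kept and 5 passed, NUP35, NUP155, NUP210, SEH1L and AAAS, against 8.07% called lower. These shares were not matched to brightness, and 29 of the 40 genes lay in the 2 brightest of the 10 groups. With any 1 of the 4 arrays left out 0 passed, and the median of the 40 then lay between -0.42 (without inhibitor array 2) and -0.27 (without inhibitor array 1).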

How the data were processed

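Total RNA was measured on 4 arrays. The deposited values are log2 expression per feature, and per the submitters' processing notes the authors made them with RMA and Transcriptome Analysis Console 4.0; RMA parameters and the genome build are not given in the sources used here. Of 21448 features 17709 carried 1 gene symbol in the platform annotation and 3739 none. The brightest feature stood for a symbol. Groups were compared with limma 3.58.1 (lmFit, eBayes) in R 4.3.3 on all features, without a filter or block, with Benjamini-Hochberg adjustment over all features and 95% intervals. With 2 against 2 arrays an exact permutation p cannot fall below 0.333. Data with 21448 features were simulated 5 times per fold size, with 200 features changed each time. In them 0% of 2-fold and 96.6% of 4-fold changes were recovered. The simulated noise did not follow brightness and no shift shared by many features was added, so these rates may not hold for the real arrays. Same-numbered arrays deviated from their group means with a correlation of 0.00579, so the numbers were not taken as pairs. Members and lists were chosen with earlier results of these data known. Named genes were up to 3 per role with the largest moderated statistic and 4 of the second list; all other members are given after their values were seen. Values have 2 decimals. Protein sequences and signal over background were not used here.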

Additional observations from a re-analysis of the deposited data

How the results depend on the processing

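The median of the 40 genes, -0.372, was -0.176 after quantile normalization, -0.166 after cyclic loess and -0.17 relative to features of like brightness, and ran from -0.418 to -0.272 with 1 array left out. The count of features past the threshold, 11, was 1525 with the intensity trend, 559 with the trend after quantile normalization, 1011 above the median level, 38 above the 25th percentile, and 0 after quantile normalization, with the replicate block and without any 1 array. The count of pore and transport genes past it, 0, was 13, 2 and 5 in the first 3 of these, and that of the second list, 0, was 8, 1 and 6. Above a level limit fewer features are tested, and limma's variance prior also differs. The degrees of freedom of that prior were 4.78 in the main fit, 6.16 above the median level and 11.3 with the intensity trend. Fewer residual degrees of freedom remain with an array left out or a block. The part of each in these counts was not tested. The replicate block changed no call on the 40 genes. Positive differences appeared after quantile normalization (with or without the trend) and after cyclic loess for NUP43 (0.019 and 0.029), NUP58 (0.169 and 0.179), NUP107 (0.10 and 0.107), KPNA4 (0.036 and 0.039), KPNA6 (0.131 and 0.144) and TNPO1 (0.019 and 0.014); with equal medians for NUP58 (0.03) and KPNA6 (0.005); and for KPNA6 without control array 2 (0.045) and without inhibitor array 2 (0.045). The other 34 stayed below 0 under all settings run, and all 9 roles kept a median below 0 under each setting in which it was computed.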
